A study of Mus musculus with 16 samples.

Results

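The 10 genes described here, Mmp1a, Mmp2, Mmp3, Mmp8, Mmp10, Mmp11, Mmp12, Mmp13, Mmp14 and Mmp19, encode matrix metalloproteinases (MMPs). They were taken by name from the 23 Mmp genes of a table of 24982 genes, and all 10 had counts. They were chosen by their levels inside and outside the brain in these same tumors, so that this difference is given for the 10 genes as a description, and its p-values support nothing. RNA-seq had been performed on 16 primary mouse rhabdoid tumors, each from a different Smarcb1flox/flox;R26-CreERT2 mouse of mixed 129/SV and C57BL/6 background. In this model tamoxifen, given to the pregnant mother, activates a Cre recombinase that is expressed in unrestricted cell types, and Smarcb1, a subunit of the SWI/SNF chromatin remodeling complex, is inactivated. All groups carry this inactivation and no normal tissue was analysed here. There were 5 intra-CNS tumors (within the brain parenchyma, Shh in the study) and 11 extra-CNS tumors (Myc in the study), of which 6 were intracranial and 5 extracranial (1 each in back, nose and mouth and 2 in jaw).

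The 5 intra-CNS tumors were all induced at E6 and collected at 30 to 180 days of age. The 11 extra-CNS tumors were induced at E6 (2 tumors), E7 (1 tumor) or E8 (8 tumors) and collected at 52 to 210 days, so that site and day of induction are partly confounded. Small pieces of frozen tissue with tumor cells were taken by macrodissection, a step the study details for brains, and such pieces can also hold host cells. Total counts ranged from 17889968 to 110177889 per tumor, at which 3 counts correspond to 0.168 to 0.0272 CPM (counts scaled to the library total), and intervals on counts cover counting error only. Levels are given in TPM as deposited, a unit scaled to transcript length and library total. Some libraries stood apart. The transthyretin gene Ttr took 10.1% of the counts of R26P115. The summed TPM of 6 oligodendrocyte markers was 6295 in 29048 and 42.2 to 154 in the other tumors. In 43998A the summed TPM of 6 osteoclast markers was 22015, and in R26P123 that of 8 squamous epithelium markers was 2855. Smarcb1 itself ranged from 3.99 TPM in 38594A to 58.1 TPM in 29048, and no tumor with intact Smarcb1 was at hand to check it against. The tumor 43990A is extracranial in the labels and intracranial extra-CNS in the sample table of the study, and it was analysed as extracranial.

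MMPs are zinc-dependent endopeptidases that cleave collagens, proteoglycans and other components of the extracellular matrix, and also growth factors, cytokines and other proteinases. Most are secreted as inactive proenzymes whose prodomain must be removed, for instance by plasmin or by another MMP, and they are held in check by tissue inhibitors of metalloproteinases (TIMPs). Several of their genes are induced by inflammatory cytokines and growth factors through AP-1, a dimer of Fos and Jun proteins, and in tumors they are made by malignant cells as well as by fibroblasts, macrophages and neutrophils.

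In the GENCODE annotation of GRCm38 (mm10, the build of the deposited values), 6 of the 10 genes lie in a cluster of 10 Mmp genes on chromosome 9 that spans 427 kb from 7272514 to 7699585. The order along the chromosome is Mmp13, Mmp12, Mmp1b, Mmp3, Mmp1a, Mmp10, Mmp8, Mmp27, Mmp20 and Mmp7. Mmp13 lies at chr9:7272514-7283331, Mmp12 at chr9:7344381-7369499, Mmp3 at chr9:7445822-7455975, Mmp10 at chr9:7502352-7510240 and Mmp8 at chr9:7558456-7568485. Mmp1b was the exception to a plus orientation shared by the other genes of the cluster, and its 3′ end overlaps that of Mmp12. Mmp1a (chr9:7464141-7476869) is annotated as a polymorphic pseudogene, and Mmp1a and Mmp1b are paralogs, for which the sources used here do not say how shared reads were counted. Mmp2 (chr8:92827291-92853420) and Mmp14 (chr14:54431612-54445364) overlap no other annotated gene. Mmp19 (chr10:128790910-128800824) overlaps Tmem198b on the other strand. Mmp11 (chr10:75923222-75936496) lies 1604 bases from Smarcb1 on the same strand and overlaps Chchd10 on the other. Whether the authors counted by strand is not given in the sources used here, so that reads of such overlapping genes may not have been told apart.

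Promoters of genes of the chromosome 9 cluster are shown because 6 of the 10 genes lie there and because AP-1 motifs in them are the textbook route of induction. RefSeq windows (GRCm38.p6) from 250 bases before to 50 bases after the start of transcription were found for 8 of the 10 genes, with a second window for Mmp12. In capitals are the AP-1 heptamer TGANTCA, which reads the same on both strands, and TATAAA, the letters of the TATA box, on the strand of the gene. The windows are chr9:7272264-7272563 for Mmp13, chr9:7347124-7347423 for Mmp12, chr9:7445572-7445871 for Mmp3, chr9:7463891-7464190 for Mmp1a, chr9:7502092-7502391 for Mmp10 and chr9:7558179-7558478 for Mmp8, all on the plus strand.
Mmp13: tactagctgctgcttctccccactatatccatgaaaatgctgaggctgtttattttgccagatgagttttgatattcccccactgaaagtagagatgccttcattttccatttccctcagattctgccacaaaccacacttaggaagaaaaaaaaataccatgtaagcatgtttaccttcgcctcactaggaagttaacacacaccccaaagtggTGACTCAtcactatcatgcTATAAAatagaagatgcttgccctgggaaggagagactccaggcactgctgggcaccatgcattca
Mmp12: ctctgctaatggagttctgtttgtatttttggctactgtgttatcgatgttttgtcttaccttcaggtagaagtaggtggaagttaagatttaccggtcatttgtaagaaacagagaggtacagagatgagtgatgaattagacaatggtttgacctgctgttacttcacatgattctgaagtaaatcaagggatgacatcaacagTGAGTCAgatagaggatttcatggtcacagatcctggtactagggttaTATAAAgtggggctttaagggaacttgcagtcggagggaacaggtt
Mmp3: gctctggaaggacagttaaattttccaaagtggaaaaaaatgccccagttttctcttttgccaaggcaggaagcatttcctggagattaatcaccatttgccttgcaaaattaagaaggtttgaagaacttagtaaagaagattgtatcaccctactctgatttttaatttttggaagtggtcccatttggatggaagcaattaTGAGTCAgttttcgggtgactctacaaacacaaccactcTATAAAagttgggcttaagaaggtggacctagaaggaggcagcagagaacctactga
Mmp1a: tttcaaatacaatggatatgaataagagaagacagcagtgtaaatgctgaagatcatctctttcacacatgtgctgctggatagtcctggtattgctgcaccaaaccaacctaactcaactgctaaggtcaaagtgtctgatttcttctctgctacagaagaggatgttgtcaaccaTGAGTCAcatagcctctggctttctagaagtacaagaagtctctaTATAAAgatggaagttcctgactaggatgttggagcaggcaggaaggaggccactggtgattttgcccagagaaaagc
Mmp10: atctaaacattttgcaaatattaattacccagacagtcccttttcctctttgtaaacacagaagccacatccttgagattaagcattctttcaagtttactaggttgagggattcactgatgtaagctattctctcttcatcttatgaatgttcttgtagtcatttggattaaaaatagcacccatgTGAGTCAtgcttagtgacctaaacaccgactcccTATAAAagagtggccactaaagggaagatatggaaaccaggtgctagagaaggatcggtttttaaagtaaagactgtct
Mmp8: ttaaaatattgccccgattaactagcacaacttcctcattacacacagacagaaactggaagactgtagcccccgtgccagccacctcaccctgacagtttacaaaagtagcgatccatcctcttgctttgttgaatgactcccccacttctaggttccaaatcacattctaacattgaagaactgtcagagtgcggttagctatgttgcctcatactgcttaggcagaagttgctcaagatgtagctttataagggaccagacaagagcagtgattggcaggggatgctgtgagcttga

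The AP-1 heptamer was found in the windows of Mmp13, Mmp12, Mmp3, Mmp1a and Mmp10, 5 of the 8 genes, against 7.81% of the 32851 windows in the RefSeq table. Its first base lay at position -35 from the start in Mmp13, -44 in Mmp12, -46 in Mmp3, -73 in Mmp1a and -63 in Mmp10. In Mmp13 the letters were TGACTCA and in the other 4 genes TGAGTCA. The same 5 windows held TATAAA downstream of the heptamer without overlapping it, and 0.995% of all windows held both. TATAAA began at position -16 in Mmp13, 5 in Mmp12, -7 in Mmp3, -28 in Mmp1a and -29 in Mmp10. In Mmp12 it thus lay after the annotated start, and whether these letters act as a TATA box was not tested. The windows of Mmp8, Mmp11 and Mmp14, and the other Mmp12 window (chr9:7344147-7344446), held neither in these letters, apart from TATAAA on the opposite strand of Mmp8. With 1 mismatch allowed, 8 of 8 genes and 69.4% of all windows held a heptamer, so that the looser search separates little. The PEA3 motif of ETS factors, AGGAAG on either strand, was found in 6 of 8 genes and 35.4% of windows. The RUNX motif, ACCACA on either strand, was found in Mmp13 and Mmp14 and in 16.8% of windows.

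The collagenases Mmp1a, Mmp8 and Mmp13 cleave fibrillar collagen. Mmp1a, the interstitial collagenase, was at 0 counts in 4 of the 5 intra-CNS tumors and at 1 count (0.0547 TPM) in R26P98. In the 6 intracranial extra-CNS tumors it had a lowest, median and highest level of 0.0541, 4.53 and 1037 TPM. The 5 extracranial levels were 0 in 43825B, 18.8 in 43987A, 0 in 43990A, 0.0365 in 43998A and 0.14 in R26P123. Thus 7 of the 11 extra-CNS tumors lay above all intra-CNS tumors, while 4 were at or under 3 counts, and R26P170 alone held 26444 of the 28431 counts. Pooled over tumors, Mmp1a made up 64.5 CPM outside and 0.00545 CPM inside the brain, where its total was 1 count, a ratio of 11824 with a 95% counting interval of 2122 to 467032. Without R26P170 the ratio was 887 (interval 159 to 35061).

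Mmp8, the collagenase stored in neutrophil granules, was low in every tumor. The intra-CNS levels were 0 in 29048, 0.0328 in 38594A, 0.127 in 29050A, 0.0452 in R26P98 and 0 TPM in R26P87. Intracranial extra-CNS tumors ranged from 0.643 to 3.45 TPM with a median of 1.93. The extracranial levels were 0.299 in 43825B, 0.328 in 43987A, 1.73 in 43990A, 0.181 in 43998A and 2.26 TPM in R26P123. Despite the low level the ranges did not overlap, although the gap rests on few counts, 8 in 29050A (0.127 TPM) and 6 in 43998A (0.181 TPM). The log2 fold change, fitted with edgeR on the counts, was 5.48 ± 1.07 (SE, 11 and 5 tumors), or 6.55 without 29050A, the highest intra-CNS tumor.

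Mmp13, the collagenase of cartilage and bone, was also at a low level in all 5 intra-CNS tumors, at 0.0635 in 29048, 0.181 in 38594A, 0.292 in 29050A, 0.124 in R26P98 and 0.248 TPM in R26P87. In intracranial extra-CNS tumors the lowest, median and highest levels were 1.32, 7.42 and 93.7 TPM. Extracranial tumors were at 13.6 in 43825B, 3.31 in 43987A, 61.6 in 43990A, 0.968 in 43998A and 12.9 TPM in R26P123. Each extra-CNS tumor exceeded every intra-CNS tumor, and the spread among extra-CNS tumors was 96.8-fold, with 43989C and 43990A on top. The log2 fold change was 7.30 ± 1.43 (SE), or 6.70 without 43989C.

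The stromelysins Mmp3 and Mmp10 cleave proteoglycans, laminin and fibronectin and activate procollagenases. Mmp3 was the member of the cluster with the highest level inside the brain, at 9.34 in 29048, 0.0895 in 38594A, 0.347 in 29050A, 2.22 in R26P98 and 0 TPM in R26P87. Intracranial extra-CNS tumors ranged from 1.18 to 330 TPM with a median of 21.6. Extracranial tumors were at 9.09 in 43825B, 68.4 in 43987A, 4.82 in 43990A, 0.0411 in 43998A and 98.7 TPM in R26P123. The groups overlapped, since 29048 lay above 5 of the 11 extra-CNS tumors and 43998A had 1 count. The log2 fold change was 5.06 ± 1.83 (SE), and it was 4.09 without R26P170 and 6.92 without 29048.

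Mmp10 reached 0.703 TPM in R26P98 and 0.049 in 29048, 0.0225 in 29050A and 0 in 38594A and R26P87. Outside the brain its levels formed a graded series. The lowest, median and highest intracranial extra-CNS levels were 0.842, 5.73 and 400 TPM, and R26P170 (400 TPM) and 29941C (95.9 TPM) were far above the other 4. The extracranial levels were 0.0605 in 43825B, 96.5 in 43987A, 0.252 in 43990A, 0.0853 in 43998A and 23.3 TPM in R26P123. Of the 11 extra-CNS tumors, 8 lay above all intra-CNS tumors, and the log2 fold change was 9.13 ± 2.58 (SE), with 7.76 without R26P170 and 11.67 without R26P98.

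Mmp12, the macrophage elastase, was at 0.229 in 29048, 0.0217 in 38594A, 0.295 in 29050A, 0.269 in R26P98 and 0 TPM in R26P87. Intracranial extra-CNS tumors ranged from 1.14 in 29941C to 38.5 TPM in R26P170 with a median of 4.94. The extracranial tumors were at 7.55 in 43825B, 9.83 in 43987A, 1.3 in 43990A, 0.579 in 43998A and 8.24 TPM in R26P123. No extra-CNS tumor fell within the intra-CNS range, and the log2 fold change was 6.17 ± 1.24 (SE), or 5.55 without R26P170.

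Mmp19, a broad-spectrum MMP of epithelium, vessels and synovium, was present in every tumor. Its intra-CNS levels were 4.45 in 29048, 1.58 in 38594A, 1.86 in 29050A, 0.962 in R26P98 and 0.929 TPM in R26P87. The 6 intracranial extra-CNS tumors had a lowest, median and highest level of 7.57, 16.1 and 43.2 TPM. Extracranial tumors were at 5.04 in 43825B, 7.95 in 43987A, 4.5 in 43990A, 10.6 in 43998A and 17.2 TPM in R26P123. The groups did not overlap, although 43990A (4.5 TPM) and 29048 (4.45 TPM) nearly touched, and the log2 fold change was 3.49 ± 0.65 (SE).

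**Figure D1:**
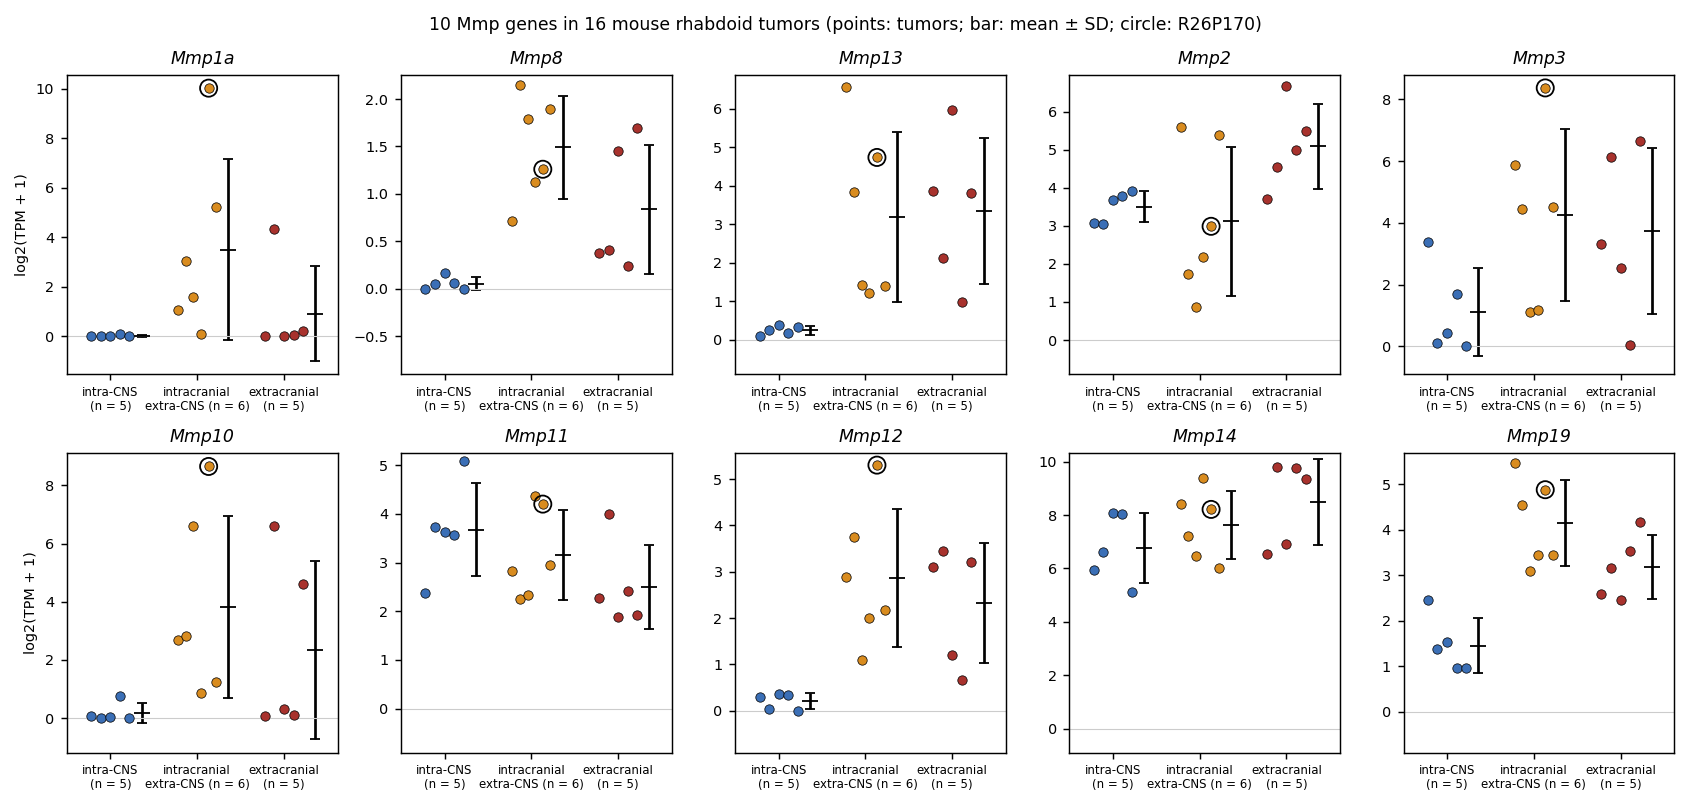
Level of each gene as log2(TPM + 1) in 5 intra-CNS, 6 intracranial extra-CNS and 5 extracranial tumors, where points are tumors, bars give the mean ± SD beside each group and the open circle marks R26P170. Mmp8, Mmp12, Mmp13 and Mmp19 are higher in all 11 extra-CNS tumors than in any intra-CNS tumor, and R26P170 is the highest tumor for Mmp1a, Mmp3, Mmp10 and Mmp12.

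Mmp14, the membrane-type MMP that activates proMmp2 at the cell surface and cleaves collagen around the cell, was the most abundant member in 14 of the 16 tumors. It was at 59.8 in 29048, 96.6 in 38594A, 270 in 29050A, 263 in R26P98 and 34 TPM in R26P87. Intracranial extra-CNS tumors ranged from 63.9 in R26P115 to 662 TPM in 29225D with a median of 222. Extracranial tumors were at 91.4 in 43825B, 888 in 43987A, 119 in 43990A, 860 in 43998A and 657 TPM in R26P123. Of the 11 extra-CNS tumors, 6 exceeded all intra-CNS tumors and none lay below them all, with a log2 fold change of 1.90 ± 0.74 (SE). In the other 2 tumors Mmp10 led in 29941C and Mmp1a in R26P170.

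Mmp2, the gelatinase of stromal cells, varied less inside the brain than outside. The intra-CNS levels were 7.52, 7.23, 11.9, 12.7 and 14.2 TPM in 29048, 38594A, 29050A, R26P98 and R26P87. Extra-CNS tumors ranged from 0.818 in 29941C to 102 TPM in 43990A, with 6 above and 4 below all intra-CNS tumors. On the log2(TPM + 1) scale the SD was 0.41 among the 5 intra-CNS and 1.86 among the 11 extra-CNS tumors, and the log2 fold change was 1.94 ± 0.87 (SE).

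Mmp11, called stromelysin-3 although it cleaves matrix proteins poorly, was the member whose fold change was negative, at -0.34 ± 0.55 (SE). Its levels inside the brain were 4.19, 12.2, 11.3, 10.8 and 32.8 TPM in 29048, 38594A, 29050A, R26P98 and R26P87. Outside the brain it lay between 2.68 in 43990A and 19.7 TPM in 29225D with a median of 4.3, and 5 of the 11 tumors were below all intra-CNS tumors. Leaving out R26P87, the highest tumor, gave 0.21, so that no direction is given for Mmp11. Chchd10, which overlaps it on the other strand, was at 7.35 to 147 TPM inside and 3.03 to 373 TPM outside the brain.

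The order of the members by median TPM differed between the sites. Inside the brain it was Mmp14 (96.6), Mmp2 (11.9), Mmp11 (11.3) and Mmp19 (1.58), with the 6 genes of the cluster at 0.347 or below. The lowest Mmp14 level there, 34 TPM, exceeded the highest of every other member, while the ranges of Mmp2 and Mmp11 overlapped. Among extra-CNS tumors Mmp14 (296) was followed by Mmp2 (22.6), Mmp3 (21.1), Mmp13 (12.9), Mmp19 (9.85), Mmp12 (6.35), Mmp10 (5.46), Mmp11 (4.3), Mmp8 (1.39) and Mmp1a (1.08), and each of these neighbours overlapped in range. The summed level of the 10 genes was 82.2 to 296 TPM in intra-CNS, 189 to 2180 TPM in intracranial extra-CNS and 143 to 1131 TPM in extracranial tumors.

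**Figure D2:**
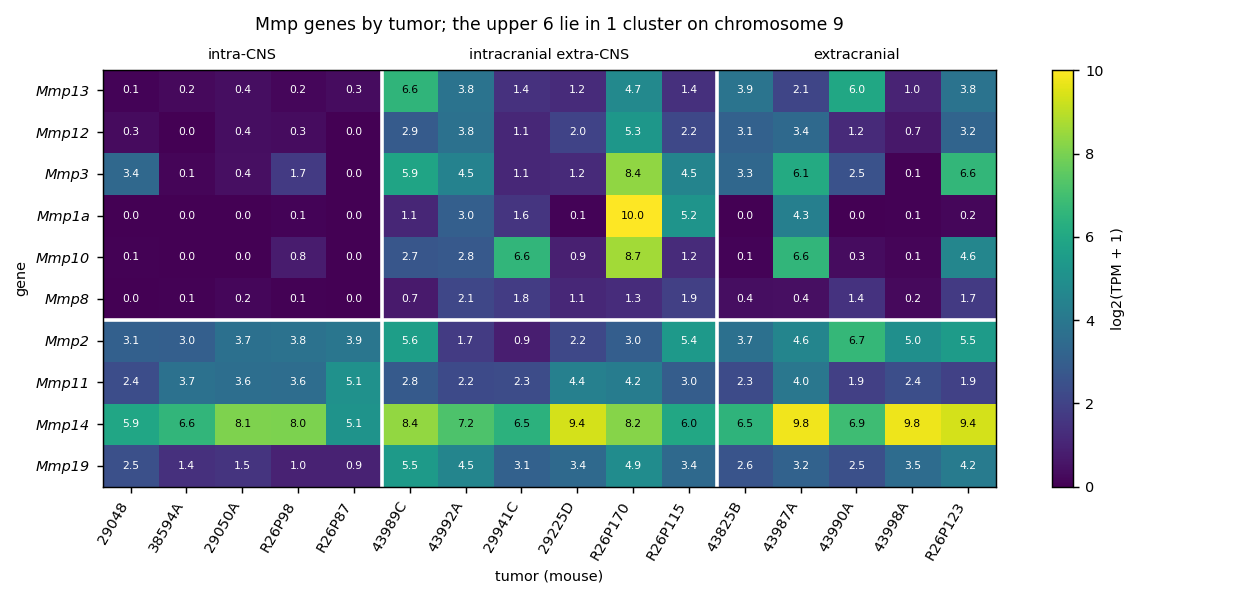
Level of each gene in each tumor as log2(TPM + 1), by color and as a number in each cell; columns are tumors in 3 groups, and the upper 6 rows are genes of the chromosome 9 cluster in their order along it. The cluster is near 0 in the intra-CNS tumors apart from Mmp3 in 29048 and R26P98 and Mmp10 in R26P98, and different extra-CNS tumors carry different members, such as Mmp13 in 43989C and 43990A and Mmp10 in 29941C and 43987A.

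Comparing all extra-CNS with all intra-CNS tumors, 7 of the 10 genes (Mmp1a, Mmp3, Mmp8, Mmp10, Mmp12, Mmp13 and Mmp19) were higher past the threshold used for all genes, which asked for an edgeR adjusted p under 0.05 and a log2 fold change beyond 1 in either direction, and none was lower. Of the 21854 genes tested, 26% passed, 13.1% higher and 12.9% lower. The ranges of 4 of the 10 genes did not overlap and lay higher outside the brain, as for 2.44% of all genes. The 7 became 4 in limma, 9 by DESeq2 and 5 to 9 with single tumors left out, and Mmp3 was lost in 8 of the 16 omissions and Mmp1a without R26P98. Since the list was made with this contrast known, nothing is read from these counts. The median log2 fold change of the 10 genes was 5.27, whatever the fitted value of Mmp1a above the median, against 0.15 for all genes. All genes had a median of -0.20 on the log2(TPM + 1) scale, where Mmp11 was at -0.82 and the 9 other genes between 0.52 and 3.02.

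Only 2 extra-CNS tumors, R26P170 and 43825B, were induced at E6 like all intra-CNS tumors. Set against the 5 intra-CNS tumors, they gave a log2 fold change of 7.26 for Mmp13, 7.64 for Mmp12, 4.62 for Mmp8 and 3.67 for Mmp19. Both lay above all intra-CNS tumors for these 4 genes, as did every extra-CNS tumor, so that their position adds nothing here. The values of 6.73 for Mmp3 and 11.05 for Mmp10 rested on R26P170, since 43825B, at 9.09 and 0.0605 TPM, lay within the intra-CNS range, as it did for Mmp1a at 0 counts. For Mmp2 and Mmp14 the values were 0.40 and 0.97, less than over all 16 tumors. The part of the day of induction in the difference was not tested. The names of the mice follow 2 schemes, and the difference of mean log2(TPM + 1) had the same direction in both for all 10 genes. As the 10 genes were chosen by this difference in these tumors, the shared direction is no independent evidence. For Mmp13 the difference was 3.01 among numbered mice (8 and 3 tumors) and 3.06 among R26P mice (3 and 2 tumors), and for Mmp1a it was 1.26 and 5.10.

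Next the 6 intracranial and 5 extracranial tumors outside the brain were compared, which asks whether the level of an MMP gene goes with the site within the Myc subgroup. None of the 10 genes passed the threshold with edgeR, where 1 of 21261 genes (0.00470%) did. Mmp19 had the lowest p. Its median was 16.1 TPM in intracranial and 7.95 TPM in extracranial tumors, and 3 intracranial tumors exceeded all extracranial ones, with a log2 fold change of 1.20 ± 0.53 (SE, edgeR adjusted p = 0.396). Tmem198b, which overlaps Mmp19 on the other strand, was at 18.3 to 145 TPM in intracranial and 30.9 to 65.8 TPM in extracranial tumors, and the same 3 tumors, 43989C, 43992A and R26P170, exceeded all extracranial ones for it, while the part of its reads in Mmp19 was not tested. Mmp19 was the single gene of the 10 under an unadjusted p of 0.05, as were 12.3% of all genes, and DESeq2 and limma passed none of the 10 either. Mmp1a, at a fitted 5.53 ± 2.69 (adjusted p = 0.427), rested on R26P170 and R26P115, which exceeded the highest extracranial tumor, and it was 1.40 without R26P170 and 11.81 without 43987A. Mmp2 and Mmp14 had the lower fitted levels in intracranial tumors, at -1.19 ± 0.97 (adjusted p = 0.63) and -1.01 ± 0.71 (adjusted p = 0.558). The values of Mmp3, Mmp10 and Mmp12, 1.02, 1.79 and 0.99, turned to -0.72, -0.16 and -0.00 without R26P170, and that of Mmp13, 0.39, to -1.0 without 43989C. With 43990A counted as intracranial, Mmp2 moved to 0.09 and Mmp13 to 1.88.

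Induction at E8 (8 tumors) was then compared with induction at E6 or E7 (3 tumors) among extra-CNS tumors. None of the 10 genes passed the threshold with edgeR, nor with DESeq2 or limma, and by edgeR none of the 21261 genes (0%) did, while 3.51% were under an unadjusted p of 0.05. Mmp1a was the 1 gene of the 10 under it, at -5.28 ± 2.23 (SE, edgeR adjusted p = 0.908). This value rested on R26P170, which was induced at E6, and it was 7.99 without that tumor. Likewise Mmp3 and Mmp10 were at -1.70 ± 1.53 and -2.21 ± 1.89 with R26P170 and at 2.72 and 6.0 without it. Mmp2 was higher at E8 in the fit, at 2.29 ± 1.15 (adjusted p = 0.908), and the remaining members lay between -1.55 and 0.92. In simulated counts with genes changed 4-fold, edgeR called 8.5% of them by day of induction and 27.5% by site. The lack of calls in these comparisons thus does not show equal levels.

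**Figure D3:**
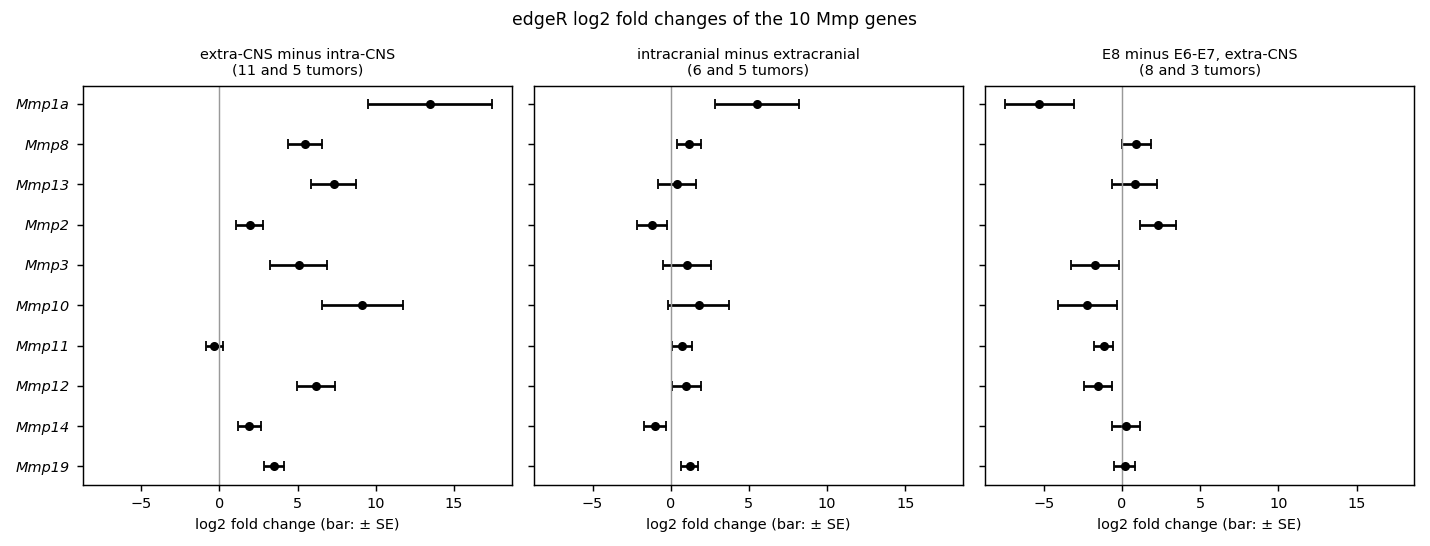
Log2 fold changes (points) with standard errors (bars) of the 10 genes from edgeR, for the difference between extra-CNS and intra-CNS tumors, between intracranial and extracranial tumors, and between induction at E8 and at E6 or E7. Fold changes outside against inside the brain are given as a description, and that of Mmp1a, with 1 count inside the brain, depends on the prior count; in the other 2 panels no gene passed the threshold.

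Within the 11 extra-CNS tumors the members did not vary as a block. Of the 45 pairs, 10 had a Pearson's r of log2(TPM + 1) of at least 0.5, 11 were below 0 and the median was 0.20. The highest was between Mmp3 and Mmp12, at 0.88 (Spearman's rho 0.85), and it was 0.82 without R26P170. Mmp1a with Mmp12 (0.68), Mmp10 (0.67) and Mmp3 (0.65) followed, and they dropped to 0.35, 0.39 and 0.42 when R26P170 was left out, after which the pair of Mmp3 and Mmp12 was the single one of the 45 at 0.5 or more. By Spearman's rho over all 11 tumors, Mmp1a was at 0.55 with Mmp12, 0.80 with Mmp10 and 0.59 with Mmp3. In all, 8 of the 45 pairs had a rho of at least 0.5. Mmp8, of the same cluster, had no r above 0.20 with any member, and the lowest of all pairs was Mmp8 with Mmp14 at -0.50. These values describe 11 tumors that share no library but differ in depth and in the RNA of host cell markers.

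**Figure D4:**
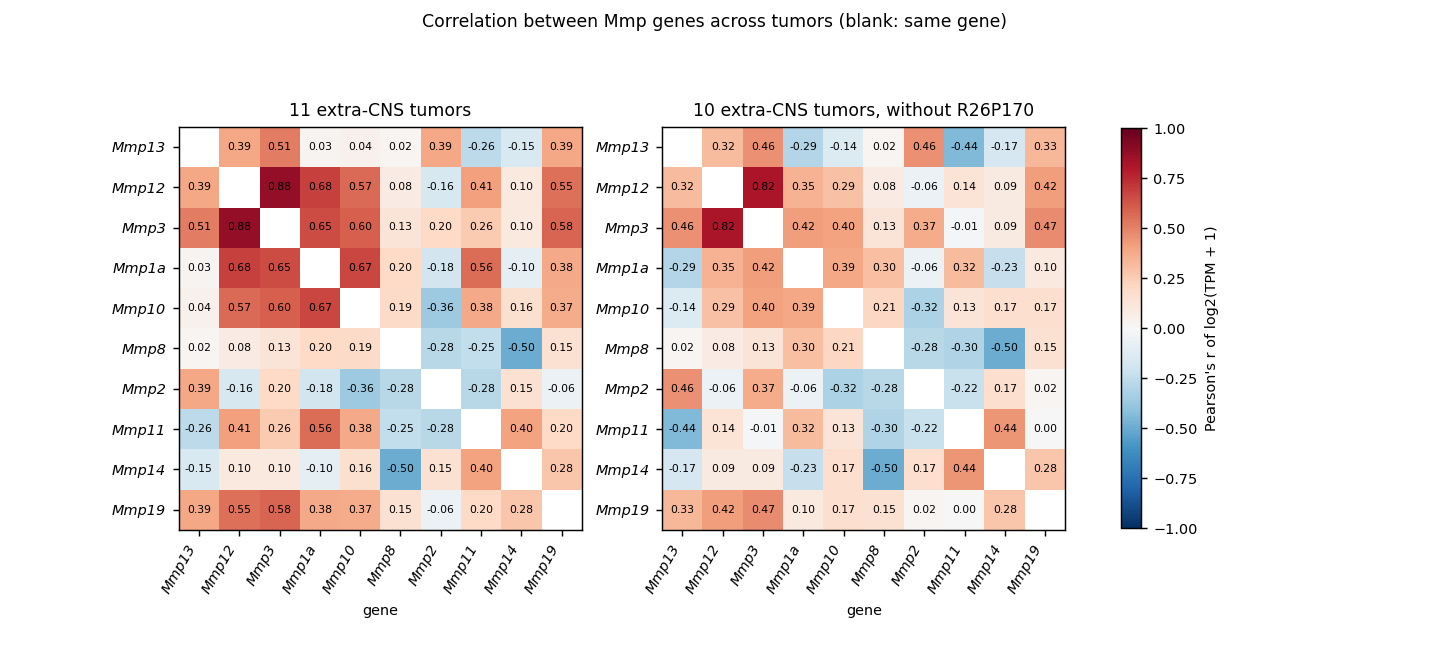
Pearson's r of log2(TPM + 1) between the 10 genes over the 11 extra-CNS tumors (left) and over 10 without R26P170 (right), by color from -1 to 1 and as numbers. Mmp3 and Mmp12 stay at 0.82 without R26P170, whereas the values of Mmp1a with Mmp3, Mmp10 and Mmp12 fall below 0.5.

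For each member the 3 genes of highest r over the same 11 tumors were taken among the 14260 genes whose mean count reached 50. Those of Mmp1a were Tctn3 (0.96), its paralog Mmp1b (0.94) and P4ha2 (0.92), a prolyl hydroxylase of collagen synthesis. For Mmp3 the nearest 3 included Nnmt (0.84) and Ebf4 (0.84), and Mmp10 went with Nhs (0.94), Kif26b (0.93) and the actin-binding Nexn (0.91). For Mmp12 they were Fam219a (0.93), Mocs1 (0.92) and 4930486L24Rik (0.87), and for Mmp8 Yap1 (0.88), an effector of Hippo signaling, Naf1 (0.88) and the chaperone Hspa4 (0.87). Mmp13 was nearest to the stress-response gene Nupr1 (0.87), Vill (0.84) and the ribosomal protein gene Rpl41 (0.84). Mmp19 was nearest to gelsolin (Gsn, 0.91), the phosphatase Dusp1 (0.89) and Arhgap28 (0.86). Mmp2 had Ttc30a1 (0.89), Ccdc28b (0.84) and Cradd (0.83), Mmp11 Rtl1 (0.93), Ildr1 (0.92) and Astn1 (0.90), and Mmp14 6430411K18Rik (0.92), Chrm2 (0.88) and the complement gene C1ra (0.88). With 14260 genes and 11 tumors some high values are met in any case, and no p is given.

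Among the 13 other Mmp genes, 5 rose and 1 fell in extra-CNS tumors past the threshold, and their median log2 fold change was 1.88. Over all genes 13.1% rose and 12.9% fell with a median of 0.15, the shares and the median against which this list and those below stand. Mmp9, the gelatinase of neutrophils, macrophages and osteoclasts, was at 0.209 to 2.72 TPM inside the brain and had a lowest, median and highest level of 2.09, 36.2 and 8412 TPM outside, a log2 fold change of 9.92 ± 2.51 (SE, edgeR adjusted p = 0.00636). Its highest tumor was 43998A, the one with the high osteoclast markers. Mmp23 (4.24 ± 1.06, adjusted p = 0.00592), Mmp25 (3.72 ± 0.88, adjusted p = 0.00425), Mmp1b and Mmp27, both of the chromosome 9 cluster, also rose by edgeR. The call of Mmp23 was lost with tumors induced at E6 alone, that of Mmp27 in limma, and that of Mmp1b in both and without 29048, 38594A or 29050A. Mmp1b and Mmp27 were listed at 0 TPM in all 5 intra-CNS tumors, and Mmp27 was between 0.0347 and 1.03 TPM in the 11 extra-CNS tumors. The membrane-type gene Mmp15 fell, from a median of 84.4 TPM inside to 3.37 TPM outside the brain (-2.84 ± 0.84, adjusted p = 0.0158), opposite in sign to Mmp14, and this call was lost without R26P98 and with intracranial tumors alone. Mmp17, by contrast, was at 0.81 ± 0.98 (adjusted p = 0.531).

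Of 8 inhibitors 3 rose and 1 fell, with a median of 1.74, and the share that fell was near that of all genes. Timp1, a secreted inhibitor of most MMPs, was at 4.85 to 13 TPM inside the brain and at a lowest, median and highest level of 8.94, 2189 and 6234 TPM outside (8.90 ± 1.35, edgeR adjusted p = 0.000153). The lowest was 43990A, and the other 10 extra-CNS tumors lay above all intra-CNS tumors. Timp2, which bridges Mmp14 and proMmp2, rose by 2.97 ± 0.58 (adjusted p = 0.00109). Timp4 fell by 4.47 on the log2 scale (SE 1.02, adjusted p = 0.00313), a call lost without 29048, the tumor with 44.1 TPM, and with tumors induced at E6 alone. Timp3 was at 1.24 ± 0.73 (adjusted p = 0.199) and A2m at 2.24 ± 2.31 (adjusted p = 0.472). For A2m, R26P115 was at 1218 TPM, while the median was 32.9 TPM inside and 0.365 TPM outside the brain. As 7 of the 11 extra-CNS tumors lay below all intra-CNS tumors, no direction is given for A2m.

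Of 12 activators, receptors and uptake genes 7 rose and 1 fell, with a median of 1.85. The urokinase gene Plau, which makes plasmin from plasminogen, was at 3.71 to 6.84 TPM inside and 18.9 to 1439 TPM outside the brain (6.54 ± 1.40, edgeR adjusted p = 0.002). Its receptor Plaur was at 3.93 to 5.58 TPM inside and 8.9 to 419 TPM outside (6.13 ± 0.75, adjusted p = 3.1e-05). Furin, the convertase that activates Mmp14 and Mmp11 within the cell, rose by 2.60 ± 0.44 (adjusted p = 0.000332) and Plat, the tissue plasminogen activator, by 2.77 ± 0.70 (adjusted p = 0.00613). Plg, plasminogen itself, fell by 7.46 on the log2 scale (SE 1.18, adjusted p = 0.000206), from 1.7 to 27.2 TPM inside the brain. It was at or under 3 counts in 8 of the 11 extra-CNS tumors, so that the size of this fall is uncertain. For Plau, Plaur, Furin and Plg the intra-CNS and extra-CNS ranges did not overlap. Bsg, an inducer of MMPs on the cell surface, was at 1.49 ± 0.56 (adjusted p = 0.0515).

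Of 12 transcription factor genes named for Mmp promoters 7 rose and none fell, with a median of 2.30. They included the AP-1 subunits Jun (2.64 ± 0.52, edgeR adjusted p = 0.00114), Junb (3.71 ± 0.56, adjusted p = 0.000153), Fosl2 (3.77 ± 0.65, adjusted p = 0.000388) and Fosl1 (7.38 ± 1.08, adjusted p = 0.000117). Fosl1 was at 0.137 to 0.909 TPM inside the brain and at 0.727 in 43990A and 5.45 to 124 TPM in the other extra-CNS tumors. Fos (1.13 ± 0.44, adjusted p = 0.0577) and Jund (1.02 ± 0.39, adjusted p = 0.0541) did not pass. Runx2, a factor of bone that acts on the Mmp13 promoter, rose by 3.65 ± 0.67 (adjusted p = 0.000652). Tumor 43990A, second highest for Mmp13 at 61.6 TPM, was the lowest extra-CNS tumor for Fosl1 and for Runx2, at 2.39 TPM. The highest for Mmp13, 43989C at 93.7 TPM, was at 62.7 TPM for Fosl1 and 15.4 TPM for Runx2. The part of these factors in the level of Mmp13 was not tested.

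Of 8 cytokine genes 5 rose and none fell, with a median of 2.66. Il1b, an inducer of collagenases and stromelysins, had a median of 1.58 TPM inside and 27.2 TPM outside the brain (4.46 ± 0.87, edgeR adjusted p = 0.000998), and Tgfb1 rose by 2.54 ± 0.41 (adjusted p = 0.000241). Il6 (4.91 ± 1.28, adjusted p = 0.00792), Osm (3.53 ± 0.62, adjusted p = 0.00049) and Tnf (2.77 ± 0.67, adjusted p = 0.00488) rose at levels of at most 20.2 TPM, Il6 not in limma and with 3 of the 5 intra-CNS tumors at or under 3 counts, and Tgfb2 and Tgfb3 did not pass. All 5 lists were written with earlier results of these tumors known, so that their direction is no independent evidence. Between intracranial and extracranial tumors, and between days of induction, no gene of the 5 lists passed with edgeR. At an unadjusted p of 0.05 this fit had 10 genes of the 52 tested by site, where 12.3% of all genes were under it, and 2 of 52 by day of induction, where 3.51% were. The former went in both directions. They included Mmp9 (-5.93 ± 1.52, edgeR adjusted p = 0.345), Mmp17 (-3.14 ± 0.78, adjusted p = 0.345) and Mmp15 (2.34 ± 1.03, adjusted p = 0.391). By site DESeq2 passed 490 genes in all, of which 3 were other Mmp genes, lower in intracranial tumors, and 1 an activator, higher there.

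**Figure D5:**
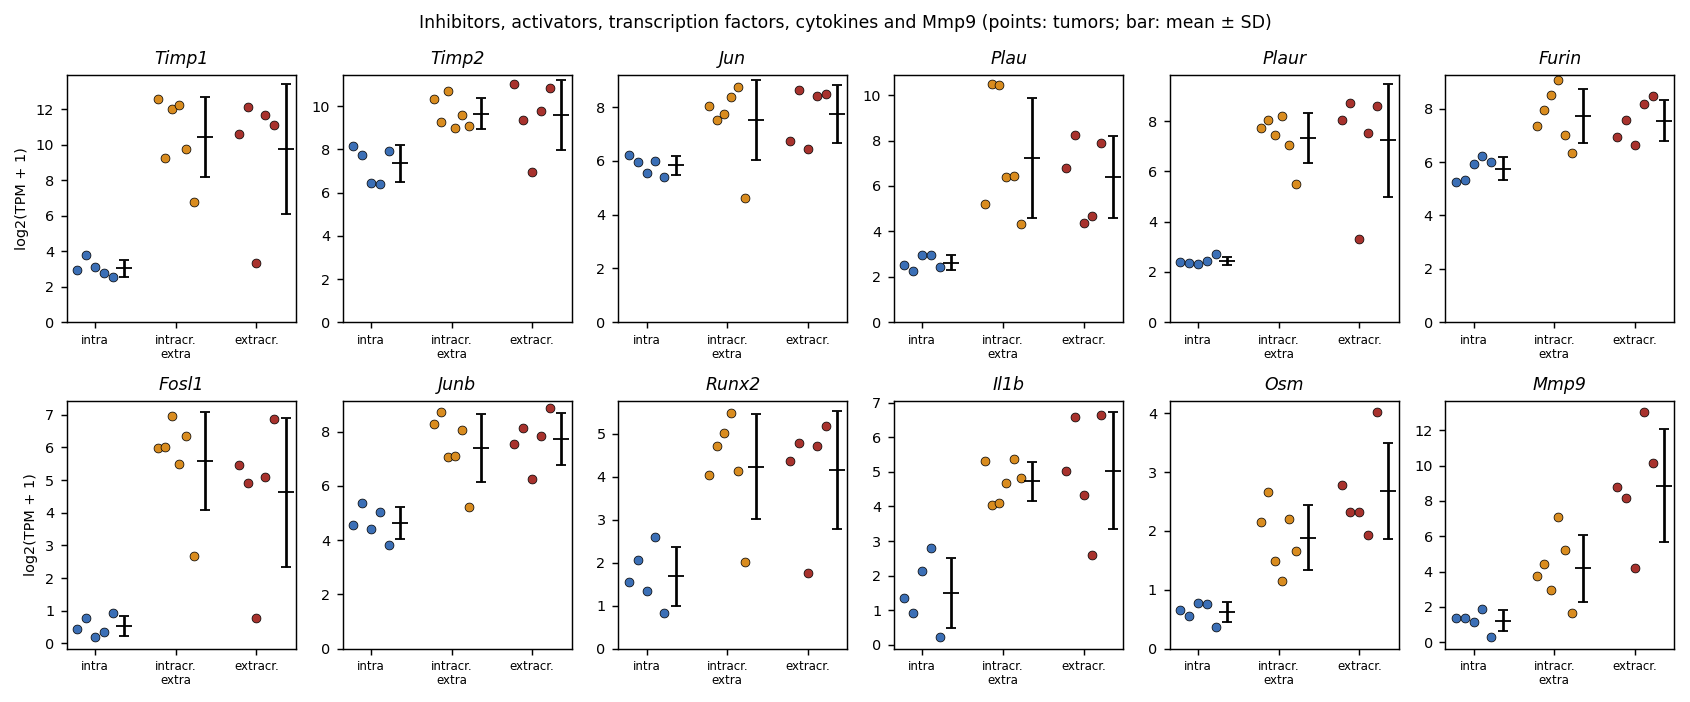
Level of 12 genes of the MMP system as log2(TPM + 1) in 5 intra-CNS (intra), 6 intracranial extra-CNS (intracr. extra) and 5 extracranial (extracr.) tumors; points are tumors and bars the mean ± SD. Plau, Plaur, Furin and Osm are higher in each of the 11 extra-CNS tumors, while 1 extracranial tumor, 43990A, lies near the intra-CNS tumors for Timp1 and Fosl1.

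In bulk tumors fewer cells of a type and less RNA per cell cannot be told apart, and the RNA of host cell markers differed with the groups as well. All 8 macrophage markers rose in extra-CNS tumors past the threshold, and their summed TPM was 508 to 826 inside and 614 to 6461 outside the brain. Of 8 neutrophil markers 7 rose, from sums of 7.04 to 14.7 TPM (Ly6g at or under 3 counts in all 5 tumors) to sums of 3.79 to 924 TPM. All 8 fibroblast markers rose, from sums of 129 to 542 TPM to sums of 640 to 12025 TPM. For the 9 markers of osteoblasts and hypertrophic chondrocytes, which make Mmp13, 1 rose and 1 fell and the sums overlapped, at 48.8 to 437 TPM inside and 13.9 to 884 TPM outside. Of the markers of other cells, 3 of 6 for osteoclasts, 4 of 6 for skeletal muscle, 2 of 5 for endothelium and 1 of 8 for squamous epithelium rose, and 3 of 6 for neurons and 5 of 6 for oligodendrocytes fell. The oligodendrocyte sum was 6295 TPM in 29048, while in the other tumors it was 42.2 to 154 TPM and the groups overlapped. Against the 13.1% and 12.9% of all genes, the counts for squamous epithelium (with a sum above 39.9 TPM in R26P123 alone) and for osteoblasts and chondrocytes were near the share of all genes. The part of these cells in the levels of the 10 genes was not tested.

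Across the 11 extra-CNS tumors, 7 of the 100 pairs of a member and a marker sum had an r of at least 0.5 in size, against 13.7% of the pairs of other genes with these sums, so that nothing is read from their number. The neutrophil sum was at 0.64 with Mmp3 (rho 0.52), 0.62 with Mmp8 (rho 0.70) and 0.50 with Mmp12 (rho 0.45). The macrophage sum was at 0.57 with Mmp13 (rho 0.61) and -0.54 with Mmp8 (rho -0.48), the fibroblast sum at -0.72 with Mmp1a (rho -0.71) and the neuron sum at 0.63 with Mmp14 (rho 0.59). Mmp12, the macrophage elastase, was at 0.16 with the macrophage sum. In R26P170, the tumor highest for Mmp1a, Mmp3, Mmp10 and Mmp12, the macrophage sum was 2128 TPM, the neutrophil sum 209 TPM and the fibroblast sum 1331 TPM, each within the range of the other extra-CNS tumors. In 43998A, with 1 count of Mmp3 and the lowest extra-CNS levels of Mmp8, Mmp12 and Mmp13, the neutrophil sum was the lowest of all 16 tumors at 3.79 TPM and the fibroblast sum was 11637 TPM.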

How the data were processed

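Polyadenylated RNA of 16 tumors was sequenced from stranded libraries (TruSeq, NovaSeq, paired-end). Per the labels and the processing notes, the authors trimmed reads with Trim Galore and mapped them with STAR 2.5.3a to mm10. They deposited whole-number counts per gene, without normalization, for 24982 genes, and the authors' TPM values for 24951 genes, which rest on the same counts (100% of TPM to count ratios within 5% of the median of the gene at 50 or more counts). The column of mouse 29048 in the deposited TPM table was read as the other TPM columns. The gene annotation, and whether counting used strand, are not given in the sources used here. No 2 of the libraries were identical over 120 pairs. Groups follow the labels' tumor location. Replicates are separate mice.

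All genes that had at least 1 count were fitted with edgeR 4.0.16 (TMM, glmQLFit and glmQLFTest; limma 3.58.1, DESeq2 1.42.0, R 4.3.3). P-values were adjusted by Benjamini-Hochberg across the whole table, and a call required 0.05 and a log2 fold change beyond 1. The scripts were tested on simulated data. The site and tamoxifen comparisons used the extra-CNS tumors alone. Tables, correlations and motifs were made with Python 3.11.15, numpy 2.4.6, pandas 2.3.3 and scipy 1.17.1, and figures with matplotlib 3.10.9. The pseudocount was 1. Alternatives were DESeq2, its size factors in edgeR, filterByExpr, limma on log2(TPM + 1), no fold threshold, mouse name scheme or site as covariate, single tumors left out, tumors of E6 or E8 alone, intracranial tumors alone, 43990A as intracranial, CPM, other correlations and 1 mismatch in the heptamer. The 10 genes, the 5 pathway lists and the marker lists were chosen with earlier results of these data known. Named besides the 10 genes are at most 5 genes of highest mean TPM from each list, further list genes whose role a sentence needs, and 3 nearest genes for each member. Ttr, Chchd10, Tmem198b and Smarcb1 were named for depth, overlap or position, after their values were seen. Some items of these lists are not reported here.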

Additional observations from a re-analysis of the deposited data

Results flagged for a closer look

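A gap test on log2(TPM + 1) within each of the 3 groups marked 4 of 30 sets of values, each because 1 tumor lay far from the rest, and chance alone marks about 1 set in 20. Mmp1a in the intra-CNS tumor R26P98 was at 0.08, where the other 4 were at 0, and this is 1 count. In the same tumor Mmp10 was at 0.77, which is 11 counts or 0.703 TPM. Among extracranial tumors, 43987A (jaw) stood above the others for Mmp1a at 4.31 (18.8 TPM, 850 counts) and for Mmp11 at 3.99 (14.9 TPM, 760 counts). The level of Mmp1a in R26P170 was not marked, since R26P115 narrowed the gap in its group.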

How the results depend on the processing

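No paired analysis was possible because all tumors came from different mice and replicate numbers follow accession order alone. The count of genes past the threshold outside against inside the brain was 5689, and it was 3533 with tumors induced at E6 alone, where fewer tumors entered. It was 4766 to 6649 with single tumors left out and within 1.5 times of 5689 under the other alternatives. By site, 1 gene passed, with 490 by DESeq2, 0 among tumors induced at E8 and 0 to 3 with single tumors left out. By day of induction, 0 passed, with 39 by DESeq2 and 0 to 1 with single tumors left out. None of the 10 Mmp genes passed under any of these alternatives of site or day. Of the 10 genes, 7 were past the threshold outside against inside the brain, 9 by DESeq2, 4 by limma and 5 to 9 with single tumors left out (5 without R26P98, which lost Mmp1a and Mmp3, and 9 without 29941C, which added Mmp2 and Mmp14). The other Mmp genes that rose, 5 of 13, were 3 in limma, with filterByExpr or with tumors induced at E6 alone, and the activators that rose, 7 of 12, were 4 in limma or at E6 alone. The 10 pairs of genes at r of 0.5 or more became 1 to 12 with single tumors left out, an alternative added after the data were seen, and the 5 promoters with AP-1 became 8 with 1 mismatch. By site, signs turned in limma for Mmp13 (-0.15), with the name scheme as covariate for Mmp1a (-0.13), with 43990A as intracranial for Mmp2 (0.09), and among tumors induced at E8 for Mmp3 (-0.64), Mmp10 (-0.15) and Mmp11 (-0.17). With single tumors left out, the site values ranged from -0.72 to 1.80 for Mmp3, -0.16 to 3.88 for Mmp10, -0.00 to 1.32 for Mmp12 and -1.0 to 1.58 for Mmp13. By day of induction, signs turned in limma for Mmp13 (-0.01) and Mmp14 (-0.05), with the name scheme for Mmp1a (0.39), Mmp3 (0.39) and Mmp10 (1.06), and with site as covariate for Mmp14 (-0.58). With single tumors left out, the values by day ranged from -6.34 to 7.99 for Mmp1a, -2.31 to 2.72 for Mmp3, -2.83 to 6.0 for Mmp10, -2.06 to 0.07 for Mmp12, -0.04 to 1.64 for Mmp13, -0.19 to 1.03 for Mmp14 and -0.27 to 1.14 for Mmp19. The cause of these shifts was not tested. Depth limits Mmp1a, Mmp8 and Mmp10 inside the brain, where 4 or 5 of the 5 tumors were at or under 3 counts.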
